A study of Rattus norvegicus with 12 samples.

Results

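The regions described here are the open chromatin regions of a 4 Mb stretch of rat chromosome 15, from 29 to 33 Mb in the Rnor_6.0 assembly, which holds variable (V) segments of the T cell receptor. Peaks of 12 ATAC-seq libraries were merged wherever they overlapped by at least 1 bp, and every merged region that started inside the stretch was kept, which gave 360 of the 118874 merged regions of the genome. The stretch was chosen by the length in peaks it held, which was higher in Ethanol than in Control libraries. All values of Ethanol against Control below are therefore descriptions without a test. The 4 Mb on either side, from 25 to 29 Mb with 160 regions and from 33 to 37 Mb with 234 regions, served as flanks.

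The animals were adult male Sprague Dawley rats, with no transgene or other genetic change named in the labels. The Control group (6 libraries) was injected intraperitoneally with saline and the Ethanol group (6 libraries) with 1 g/kg ethanol, and the amygdala was dissected 1 h after the injection. ATAC-seq uses a transposase that cuts and tags exposed DNA, so that a peak marks a stretch of accessible chromatin. For each library there was 1 list of peaks with positions and a score but without read counts, so sequencing depth is unknown, and a region without a peak is a region that did not reach the authors' list.

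T cell receptor genes are assembled in developing T cells, where 1 of many V segments is joined to J (and, at some loci, D) segments ahead of a constant segment. Each V segment carries its own short promoter, and the segments arose by repeated duplication, so that neighbouring copies can be nearly identical in sequence. Segments of the alpha and delta chains lie together in 1 locus. The locus is known for its activity in T cells and is not known as an active locus of neurons or glia.

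The gene table available for names, of the later GRCr8 assembly, lists 180 V segments on chromosome 15, and of the 217 gene records between the first and the last of them 5 are protein coding. In the study's own annotation 18 gene starts could be placed in the stretch. Of these, 8 had a record in the GRCr8 table, 6 as V segments and 2 as protein-coding genes, Dad1 and Abhd4. The other 10, among them Tcrva8 and Trav14s1, had no matching record, and that annotation was used in part only, so starts in the stretch may be missing from it. Markers of T cells and of brain cell types were not analysed here, because no Rnor_6.0 gene positions were at hand. In bulk tissue, a site open in more cells and a site more open in the same cells cannot be told apart. How reads that match several near-identical V segments were treated is not given in the sources used here.

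None of the V segments of chromosome 15 had an entry in the table of promoter sequences at hand, so the sequence shown is that of Dad1, which encodes a subunit of the oligosaccharyltransferase that attaches sugar chains to proteins. It is shown because its region, chr15:32886842-32889002, had the best score rank of all 360 and serves below as a reference among the members. The study's annotation places the start of Abhd4, a lipid hydrolase gene, in the same region, whereas in GRCr8 the starts of Dad1 and Abhd4 lie too far apart to share a region of this width, and the Abhd4 sequence is not shown. The sequence is the 250 bases before the start, 5′ to 3′, from RefSeq (GRCr8, minus strand, chr15:31667160-31667409), with capitals on the letters CCAAT, found once on each strand in overlap.
Dad1: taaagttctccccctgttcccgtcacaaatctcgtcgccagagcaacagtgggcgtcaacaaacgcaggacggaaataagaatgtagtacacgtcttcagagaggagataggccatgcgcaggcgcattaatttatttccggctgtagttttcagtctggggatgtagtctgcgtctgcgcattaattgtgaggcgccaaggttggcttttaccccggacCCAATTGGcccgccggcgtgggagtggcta
The sequence holds 17 CG dinucleotides against a median of 5 in the same window of 33469 rat promoters, of which 78.1% hold fewer. CCAAT is found on either strand in 34.0% of those promoters, and GGGCGG, which is not in these 250 bases, in 30.5%.

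Ethanol 3 listed the most regions of this stretch, followed by Ethanol 6 with 206, and stood apart in the number of regions that it alone listed. It listed a peak in 269 of the 360 regions (74.7%), and 73 regions (20.3%) were listed in Ethanol 3 alone, against 0 to 12 regions listed in any other library alone. Its list was not long, with 53509 peaks where the 12 lists ran from 50370 to 75847. In the flanks it listed 171 regions, inside the range of the other libraries. Of the regions that each other library listed in the stretch, a median of 86.2% were also listed in Ethanol 3, against 75% in the flanks. For Ethanol 6 the same medians were 87% in the stretch and 85.1% in the flanks. The level in the stretch was thus similar for both, and the rise from the flanks was larger for Ethanol 3. A library that lists more regions shares more with the others, and the part of this was not tested.

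More of the 360 regions had a peak in an Ethanol than in a Control library on average, while in the flanks the group means were close. In the Control group 65, 83, 81, 45, 69 and 121 regions had a peak in Control 1 to 6, a mean of 77.3 ± 25.4 (SD, n = 6). In the Ethanol group the number ran from 100 in Ethanol 1 over 125 in Ethanol 2 and 143 in Ethanol 5 to 206 in Ethanol 6 and 269 in Ethanol 3, with Ethanol 4 between Ethanol 5 and 6, a median of 149 and a mean of 166.3 ± 61.5 (SD, n = 6), or 145.8 ± 39.5 (SD, n = 5) without Ethanol 3. The groups overlapped, since Control 6 lay above Ethanol 1, while the other 5 Control libraries lay below every Ethanol library. Over the 394 regions of the flanks the Control libraries listed 175 to 223 regions, with a mean of 188.7 ± 19.0 (SD, n = 6), and the Ethanol libraries 167 to 226, with a mean of 187.8 ± 21.3 (SD, n = 6). The spread between libraries of 1 group was also wider in the stretch, with coefficients of variation of 32.8% in Control and 36.96% in Ethanol, against 10.1% and 11.4% in the flanks. Control 6 and Ethanol 6, which listed the most regions of their group in the flanks, were the first of their group in the stretch or next to Ethanol 3. The part of list length and depth in these numbers was not tested.

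**Figure D1:**
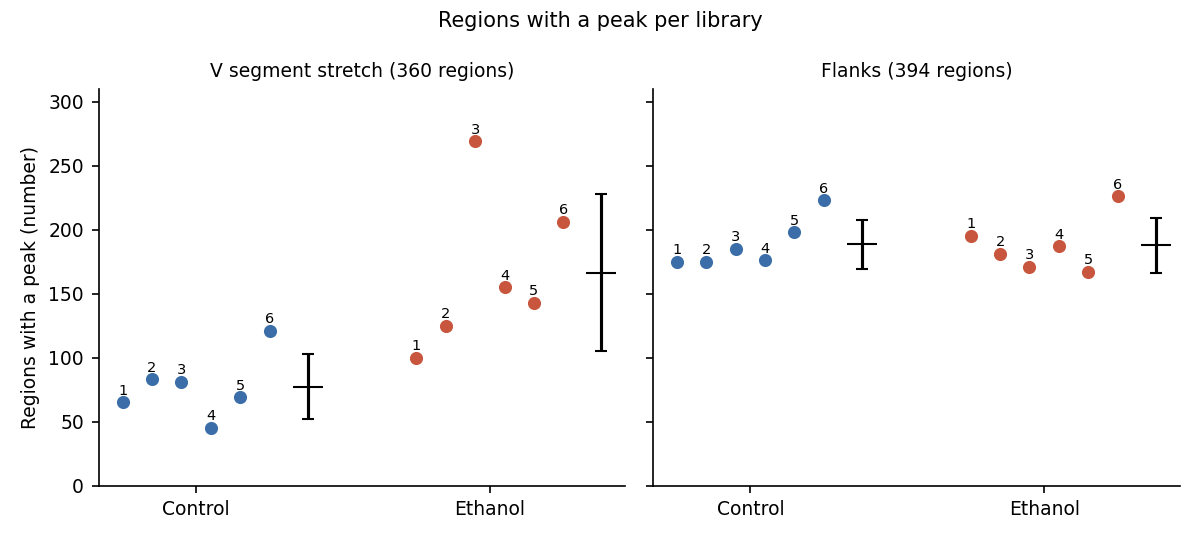
Number of merged regions with a peak in each library (points, numbered by replicate) in the V segment stretch (left) and its flanks (right), for Control (blue) and Ethanol (red), with the mean and SD of each group in black (n = 6). In the stretch the libraries reach from 45 to 269 regions and in the flanks from 167 to 226.

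The length in peaks was also higher in Ethanol along most of the stretch. Control libraries held 41109 to 141867 bp in peaks, with a median of 75356 bp, and Ethanol libraries 112243 to 383040 bp, with a median of 180364 bp, or 171608 bp without Ethanol 3. When the stretch was divided into windows of 0.5 Mb, the mean length in Ethanol was 2.06 to 4.37 times that in Control in the first 7 windows, and 1.86 to 3.48 times without Ethanol 3. The greatest ratio was in the window from 31 to 31.5 Mb, where the Control libraries held 2885 to 25726 bp and the Ethanol libraries 14687 to 98242 bp. Ethanol 3 was the highest of the 12 libraries in each of these 7 windows. Without it the Ethanol mean in the window from 31 to 31.5 Mb was 38756 bp, against 11132 bp in Control.

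The last 0.5 Mb window, up to 33 Mb, differed from the others. It held the Dad1 region, and there the ratio of the means was 0.978 (1.06 without Ethanol 3), with 8334 to 18129 bp in Control and 6981 to 17254 bp in Ethanol, and Ethanol 3 was the lowest of the 12 libraries. In the flanks the ratio per window lay between 0.705 and 1.14. The higher values in Ethanol thus ended between 32 and 33 Mb at this window size, before the upper bound of the stretch.

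**Figure D2:**
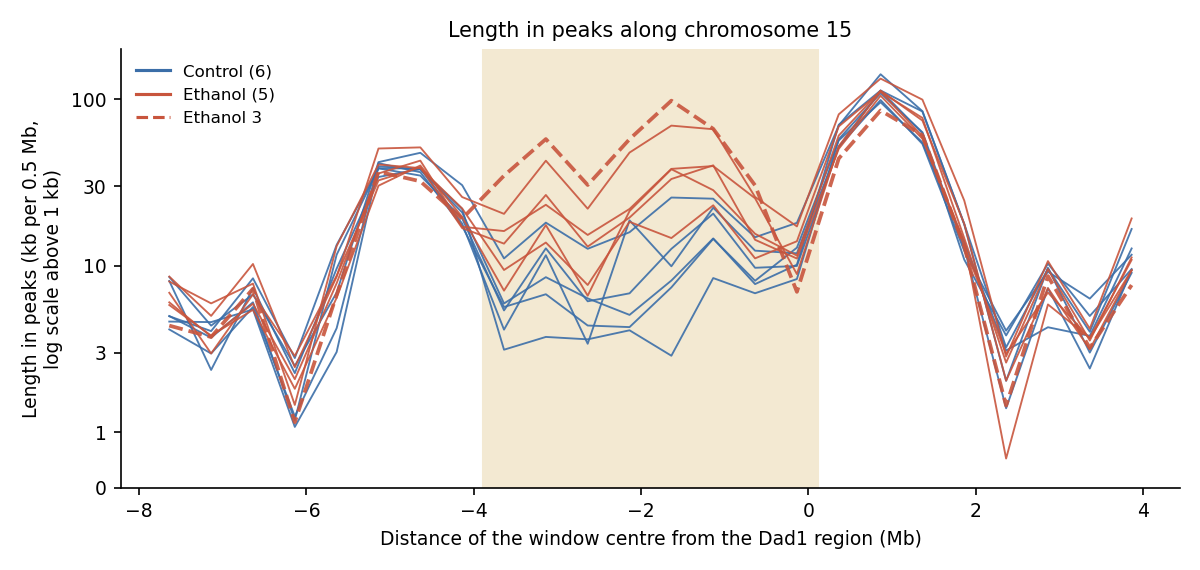
Length in peaks per window of 0.5 Mb in each library (lines, log scale above 1 kb), against the distance of the window from the Dad1 region, with the V segment stretch shaded. The Ethanol libraries (red, Ethanol 3 dashed) lie mostly above the Control libraries (blue) in the first 7 shaded windows, and the groups overlap in the last one and in the flanks.

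Most regions of the stretch were shared by few libraries. A peak was found in 1 library only in 127 regions (35.3%), in 2 to 5 libraries in 130 (36.1%), in 6 to 11 libraries in 81 (22.5%) and in all 12 libraries in 22 (6.11%). In the flanks 104 of 394 regions (26.4%) were open in all 12 libraries, against 18.2% in the whole series. The share found in a single library was much closer, at 31.7% in the flanks and 35.0% in the whole series. The stretch thus held a smaller share of regions common to all libraries than its flanks and a larger share of the classes in between.

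**Figure D3:**
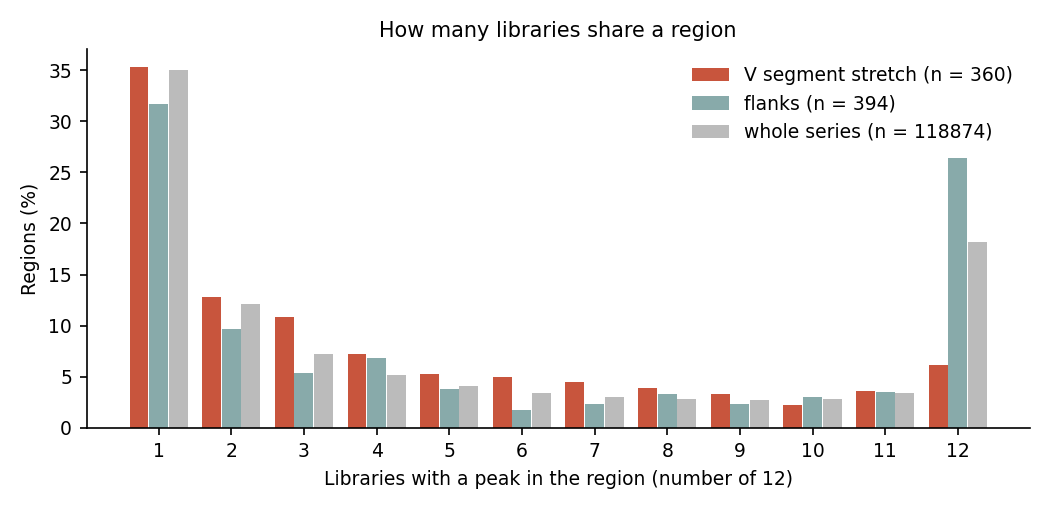
Share of merged regions (%) by the number of libraries with a peak in them, for the V segment stretch (red, n = 360), its flanks (green, n = 394) and the whole series (grey, n = 118874). The bar for all 12 libraries stands at 6.11% in the stretch, 26.4% in the flanks and 18.2% in the whole series.

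Regions shared by more libraries were wider and ranked higher by score. Regions of 1 library had a median width of 567 bp, those of 2 to 5 libraries 1329.5 bp, those of 6 to 11 libraries 2026 bp and those of all 12 libraries 2529.5 bp. In the flanks together the median widths of these 4 classes were 537, 1076, 1615.5 and 3531 bp. Against these pooled values only the class of all 12 libraries was narrower in the stretch. Its median was 2564 bp in the lower flank, close to that of the stretch, and 3920 bp in the upper flank. A merged region can only grow as more peaks are joined into it, so part of the order of the classes follows from the merging. Scores were compared as the percentile of a peak among all peaks of its own library, and the median percentile of the same 4 classes was 23.0, 27.2, 47.2 and 78.1. In the flanks these medians were 10.8, 19.1, 41.9 and 83.9. Regions found in 1 library of the stretch thus stood higher in their list than their counterparts in the flanks, and this held for the 73 regions of Ethanol 3, with a median percentile of 27.6, and not for the other 54, with a median of 9.92.

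Regions seen in Ethanol without Control were common, and the opposite was rare. The choice of the stretch bears on these counts as well, and nothing is read from them. No Control library and at least 1 Ethanol library had a peak in 191 regions (53.1%, against 23.8% of the whole series). No Ethanol library but at least 1 Control library had a peak in 11 (3.06%, against 18.3%). Without the regions of Ethanol 3 alone the first number was 118 (32.8%, against 21.5%). Of the 169 regions listed by any Control library, 132 also had a peak in Ethanol 3. More Ethanol than Control libraries had a peak in 295 regions (81.9%), more Control libraries in 22 (6.11%) and equal numbers in 43. In the flanks the first 2 counts were 114 (28.9%) and 125 (31.7%) of 394. Their shares in the whole series were 38.8% and 29.5%. Without Ethanol 3, 287 regions still had a peak, and the share of libraries with a peak was higher in Ethanol in 230 of them and higher in Control in 35.

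A count was also made over regions listed by at least 2 libraries, which left out the 127 regions of a single library and kept 233 of the 360. In 83 of the 233 (35.6%) at least 3 more Ethanol than Control libraries had a peak, where 4.25% of the 77224 such regions of the whole series did. In 1 of the 233 at least 3 more Control libraries had a peak, against 2.06% in the whole series. The flanks had 8 and 7 such regions among 269. The first of these counts was used in choosing the stretch, as far as detection follows length in peaks, and nothing is read from it. With the peaks merged anew and the same difference in the share of libraries required, it was 47 without Ethanol 3 and 44 without Ethanol 6. In groups of unequal size that difference is not exactly 3 libraries, so these counts are not fully comparable with 83.

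**Figure D4:**
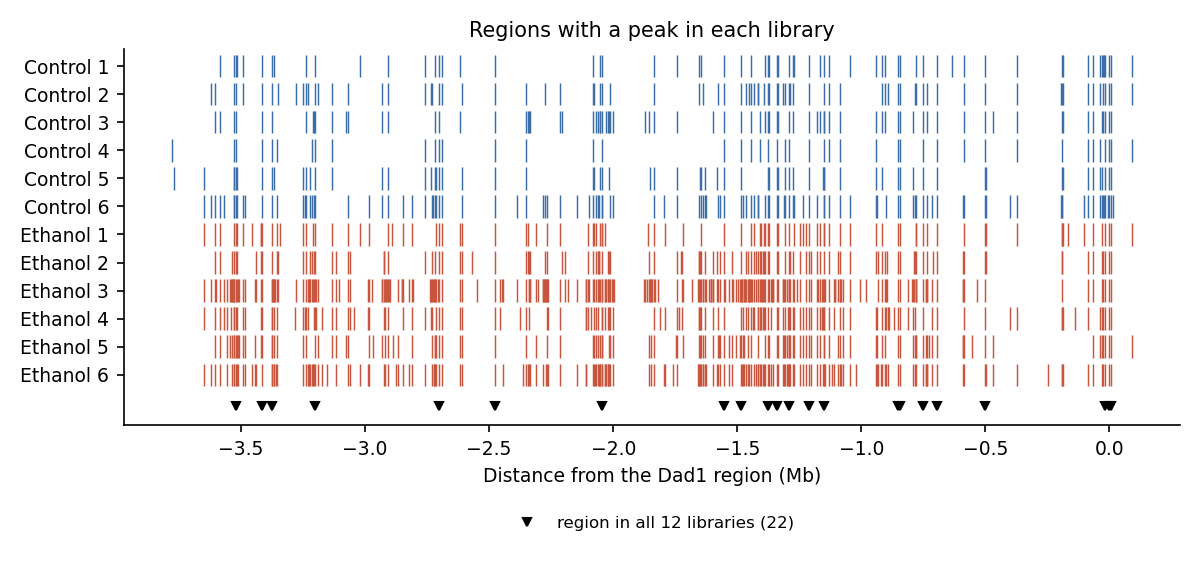
Position of every region with a peak in each library (1 row per library, Control blue, Ethanol red), as distance from the Dad1 region, with black triangles at the 22 regions found in all 12 libraries. The rows of Ethanol 3 and Ethanol 6 are the fullest, with 269 and 206 regions, and Control 4 has the fewest, 45.

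The 22 regions open in all 12 libraries formed a sparse series along the stretch. The median distance from 1 of them to the next was 90338 bp, against 21297 bp in the lower and 12656 bp in the upper flank. A gene start in the study's annotation lay within 2 kb of 8 of the 22. These were LOC684995, LOC290156, LOC682708, LOC102555014, LOC103693854, LOC102556508, LOC685078 and the pair Dad1 and Abhd4. LOC290156, LOC682708, LOC102555014 and LOC685078 are V segments in the GRCr8 table, so some V segment starts were listed as open in the amygdala of every animal, saline-treated ones included.

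By score the Dad1 region led the 22 with a median percentile of 98.6. It held 1499, 1417, 1146, 1456, 1359 and 1391 bp in peaks in Control 1 to 6 and 2161, 1115, 979, 1312, 1148 and 1289 bp in Ethanol 1 to 6. The Control mean was 1378 ± 124 bp and the Ethanol mean 1334 ± 423 bp (SD, n = 6 each), and the Ethanol libraries reached both above and below all Control libraries. The region that followed it in score, chr15:32893753-32896326, lay 4750 bp further on, with a median percentile of 93.2 and Control at 1705 ± 461 bp and Ethanol at 1749 ± 447 bp (mean ± SD, n = 6 each). Both lay in the last window, outside the part of the stretch with more peaks in Ethanol.

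The third by score was the region next to LOC684995, chr15:29366688-29370177, with a median percentile of 87.5. Its Control libraries held 932 to 1292 bp in peaks with a mean of 1105 ± 142 bp, and its Ethanol libraries 1258, 1182, 3135, 2498, 1329 and 2639 bp with a mean of 2007 ± 850 bp (SD, n = 6 each). Ethanol 3, 4 and 6 were far above all Control libraries here, and the other 3 Ethanol libraries lay inside or just above the Control range.

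Of the V segment starts open in all 12 libraries, that of LOC290156 (chr15:30183088-30184570) held 830 to 1209 bp in Control and 1071 to 1482 bp in Ethanol, with overlapping groups. LOC682708 (chr15:31510680-31512130) held 1161, 1220, 1116, 845, 1051 and 1261 bp in Control 1 to 6 and 1102, 1189, 1322, 1375, 1152 and 1349 bp in Ethanol 1 to 6. Its means of 1109 ± 149 bp and 1248 ± 115 bp (SD, n = 6 each) were close beside their spread. LOC102555014 (chr15:31675908-31679085) held 1267 to 2328 bp in Control and 1350 to 2741 bp in Ethanol, and LOC685078 (chr15:32386273-32387499) had means of 942 bp in Control and 883 bp in Ethanol. The values of these V segments were thus not all higher in Ethanol.

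Among the 22 the region at LOC102556508, chr15:32135390-32137992, was 1 of 2 whose groups did not overlap. It held 1517, 1492, 1273, 1270, 1425 and 1537 bp in Control 1 to 6 and 1664, 1772, 2020, 2192, 1758 and 2183 bp in Ethanol 1 to 6, with means of 1419 ± 120 bp and 1932 ± 231 bp (SD, n = 6 each). It was also 1 of the 3 regions with the smallest SD of log2 length within groups, 0.15. The other was chr15:31401227-31404414, with 656 to 1588 bp in Control and 1624 to 3187 bp in Ethanol, where the gap between the groups was narrow. Near LOC103693854, chr15:32042567-32045051, the groups overlapped, with 1088 to 2018 bp in Control and 1277 to 2371 bp in Ethanol.

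Most of the 22 regions held a greater mean length in peaks in Ethanol. This length also chose the stretch, so nothing is read from the counts and ratios that follow. The mean length in peaks was higher in Ethanol in 19 of the 22 (86.4%), where 62.4% of the 21640 regions in all 12 libraries of the whole series and 52 of 104 in the flanks were. The median log2 ratio of Ethanol to Control was 0.33 over the 22, 0.05 over the whole series and -0.00 in the flanks. Without Ethanol 3 the mean was higher in Ethanol in 20 of the 22, with a median log2 ratio of again 0.33. The 3 that were lower in Ethanol with all libraries kept were LOC685078, the Dad1 region and chr15:32190588-32192218, and all of them started in the last 2 windows of 0.5 Mb.

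Members open in every library varied unequally. The greatest mean length was 2226 bp at chr15:31596566-31599469, with 1677 to 2311 bp in Control and 2086 to 2845 bp in Ethanol. It was followed by chr15:32034465-32037766, chr15:29469863-29473122, chr15:29513228-29515654 and the LOC102555014 region, with means of 2163, 1952, 1876 and 1832 bp. The largest SD of log2 length within groups, 0.80, was at chr15:31545472-31549478, where Control 4, 5 and 6 held 612, 425 and 511 bp and Control 1, 2 and 3 held 1356, 1632 and 2688 bp. Then came chr15:32870722-32873995 with 0.70 and chr15:30841995-30844444 with 0.61. The latter was open in all 12 libraries at a median percentile of only 33.9. The smallest SD, 0.14, was at chr15:30411721-30413106, with 955 to 1123 bp in Control and 1003 to 1378 bp in Ethanol, and the third smallest, 0.16, at chr15:32190588-32192218.

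Regions that varied from library to library held the largest differences between the groups. Of the 233 regions in at least 2 libraries, 8 had every Ethanol library above every Control library in length (3.43%, against 0.0984% of the whole series), and 0 had the reverse (against 0.0181%). This comparison is the one that chose the stretch, and nothing is read from the counts. Divided by the total length in peaks of each library, the counts were 4 (against 0.0635%) and 0 (against 0.0842%).

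In 2 of the 8 no Control library had a peak. At chr15:31663501-31664690 Ethanol 1 to 6 held 480, 662, 783, 799, 976 and 800 bp and all 6 Control libraries 0 bp, and at chr15:31639190-31640067 Ethanol 1 to 6 held 404, 331, 878, 672, 408 and 584 bp and all 6 Control libraries again 0 bp. Both were low in their lists, with median percentiles of 27.2 and 30.4, and how far the Control libraries fell short of a peak there cannot be read from peak lists. At chr15:30620303-30622491 Control 6 alone among the Control libraries had a peak, of 614 bp, and the Ethanol libraries held 870 to 2020 bp.

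The region at chr15:30817345-30821962 held the second largest difference in mean length. Control 3 and Control 6 held 1088 and 1589 bp and the other 4 Control libraries 0 bp, while Ethanol 1 to 6 held 4306, 2698, 2855, 2119, 3679 and 3431 bp. Its means were 446 ± 709 bp and 3181 ± 780 bp (SD, n = 6 each), and up to 3 separate peaks of 1 library were joined in it. Ethanol 3 was not the highest here, unlike in most of the stretch. Another 2 of the 8, chr15:30270578-30272171 and chr15:31719501-31721232, each had a peak in Control 1 and Control 3 and in every Ethanol library. The last 2 of the 8, chr15:31401227-31404414 and chr15:32135390-32137992, were open in all 12 libraries and are described above.

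The largest difference was at chr15:31427592-31432195, with 0 bp in all 6 Control libraries and in Ethanol 1 and 2954, 4604, 2826, 2519 and 4255 bp in Ethanol 2 to 6. Further on in the same window lay the longest region of the stretch, chr15:31440919-31448072, with a width of 7154 bp. It held 1121, 2764, 1232, 1014, 0 and 5488 bp in Control 1 to 6 and 2419, 6342, 6641, 2924, 2367 and 6675 bp in Ethanol 1 to 6. Control 2 and Control 6 lay within the Ethanol range there, and Control 5 had no peak. That window was the one with the greatest ratio of Ethanol to Control.

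Starts of genes in the variable class included LOC108353020, LOC102552674 and Trav14s1. Next to LOC108353020, chr15:31685829-31687526 held 0 bp in all 6 Control libraries and in Ethanol 1 and 1305, 1423, 1168, 1513 and 1685 bp in Ethanol 2 to 6. LOC102552674 (chr15:30533804-30535711) held 0 bp in Control 1, 612 to 1220 bp in the other Control libraries and 991 to 1908 bp in Ethanol. Near Trav14s1, a V segment of the alpha chain by its name, chr15:30553540-30555161 held 830 bp in Control 3 and 1124, 1579 and 1239 bp in Ethanol 2, 3 and 6, and 0 bp in the other 8 libraries. Of the 18 gene starts placed in the stretch, 17 had a member within 2 kb, 11 lay inside a member and 8 inside a member open in all 12 libraries, Dad1 and Abhd4 sharing 1. The 1 without a member was LOC100360242. The study had listed these 3 loci, and those of LOC684995, LOC290156, LOC682708, LOC102555014, LOC103693854 and LOC102556508, from these same samples, so their values are no independent evidence of a direction.

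Few regions had more Control than Ethanol libraries. The excess was at least 2 libraries in 6 regions, of which 4 started in the last window. The greatest excess of Control libraries was at chr15:32851247-32852134, with a peak in 5 Control and 2 Ethanol libraries, of 449 to 669 bp in Control 1, 2, 4, 5 and 6 and of 481 and 753 bp in Ethanol 4 and 5. The other 5 were tied at an excess of 2. At chr15:32800813-32803633 and chr15:30806961-30808999 all 6 Control and 4 Ethanol libraries had a peak. The first of these lay in the last window and held 593 to 1596 bp in Control and up to 2371 bp in Ethanol. The other lay between 30.5 and 31 Mb and held 546 to 1834 bp in Control and up to 1977 bp in Ethanol. At chr15:30128361-30129374 and chr15:32514957-32516181 there was a peak in 5 Control and 3 Ethanol libraries, and at chr15:32691965-32693295 in Control 2 and Control 6, with 519 and 1331 bp, and in no Ethanol library. In all 6 regions the lengths of the groups overlapped.

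The members were spaced in between the 2 flanks, and 3 gaps exceeded 100 kb. The median distance between neighbouring regions was 3182 bp, against 7691 bp in the lower and 2571 bp in the upper flank, and 24.2% of the 359 distances were under 1 kb, against 20.1% and 31.8%. The longest gap, of 122719 bp, followed chr15:32514957-32516181, and the next, of 119736 bp, followed the second member, chr15:29118374-29118969, which was listed in Control 5 alone. Another gap, of 118884 bp, lay further inside the stretch, after chr15:30891822-30892337. The flanks held longer gaps, of up to 504261 bp in the lower and 400080 bp in the upper flank. The first member, chr15:29108737-29109063, was listed in Control 4 alone. The widest regions of a single library were chr15:31416293-31418326 with 2034 bp, chr15:31713949-31715789 with 1841 bp and chr15:29986894-29988569 with 1676 bp, and all 3 were listed in Ethanol 3 alone.

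At the bounds the last region below 29 Mb was chr15:28867820-28868220, with 401 bp in Ethanol 3 alone. The last member, chr15:32977801-32978906, had a peak in 3 Control and 2 Ethanol libraries, with means of 437 bp in Control and 249 bp in Ethanol. The first region above 33 Mb, chr15:33004194-33006534, was open in all 12 libraries, with Control at 1721 ± 392 bp and Ethanol at 1789 ± 247 bp (mean ± SD, n = 6 each).

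Peaks inside the stretch were next compared with those of the flanks within each library, without setting Ethanol against Control. The comparison is still not free of the choice of the stretch. A stretch picked for a difference between libraries holds regions that only some list, and such regions were narrower and lower in score. The part of this in the differences below was not tested. Each comparison used a two-sided exact sign-flip permutation test over the 12 libraries, whose smallest possible p is 0.000488, with Benjamini-Hochberg adjustment over the 5 tests. Peaks of the stretch were narrower. The median width per library was 764 to 1188 bp in the stretch, with a median of 925.5 bp, and 1151 to 1508 bp in the flanks, with a median of 1273 bp. It was lower in the stretch in 12 of 12 libraries, by a mean log2 ratio of -0.44 ± 0.16 (SD, n = 12; exact p = 0.000488, adjusted p = 0.000814). In Ethanol 3 the ratio was nearest to 0, at -0.10. Merged regions, unlike single peaks, had the same median width of 1180.5 bp in the stretch and in the flanks.

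They also had lower scores. The median percentile per library was 36.5 to 50.1 in the stretch and 50.7 to 61.5 in the flanks, a mean difference of -15.3 ± 6.06 percentile points (SD, n = 12; exact p = 0.000488, adjusted p = 0.000814), again lower in 12 of 12 libraries. The best peak of the stretch nevertheless stood at a percentile of 97.2 to 99.3 of its library. The Control libraries alone, a choice made after the data were seen, gave -0.50 for the log2 width and -13.7 points for the score. Each had an adjusted p of 0.0391 (exact permutation test, n = 6). With 6 libraries the exact p behind this value is the smallest the test can give, here and where 0.0391 recurs below. The Control values also entered the choice of the stretch.

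Fewer peaks of the stretch lay in regions that all the other libraries shared. The share of peaks of a library lying in regions with a peak in all the other 11 was 8.61% to 50% in the stretch and 51.8% to 69.0% in the flanks. The mean difference was -39.0 ± 12.03 percentage points (SD, n = 12; exact p = 0.000488, adjusted p = 0.000814), lower in 12 of 12 libraries. This measure, too, is not free of the choice of the stretch. A stretch picked for a difference between libraries holds regions that only some of them list. Among the Control libraries alone the difference was -26.7 percentage points (adjusted p = 0.0391, exact permutation test, n = 6). The choice used the Control values as well, so this difference is not free of it.

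**Figure D5:**
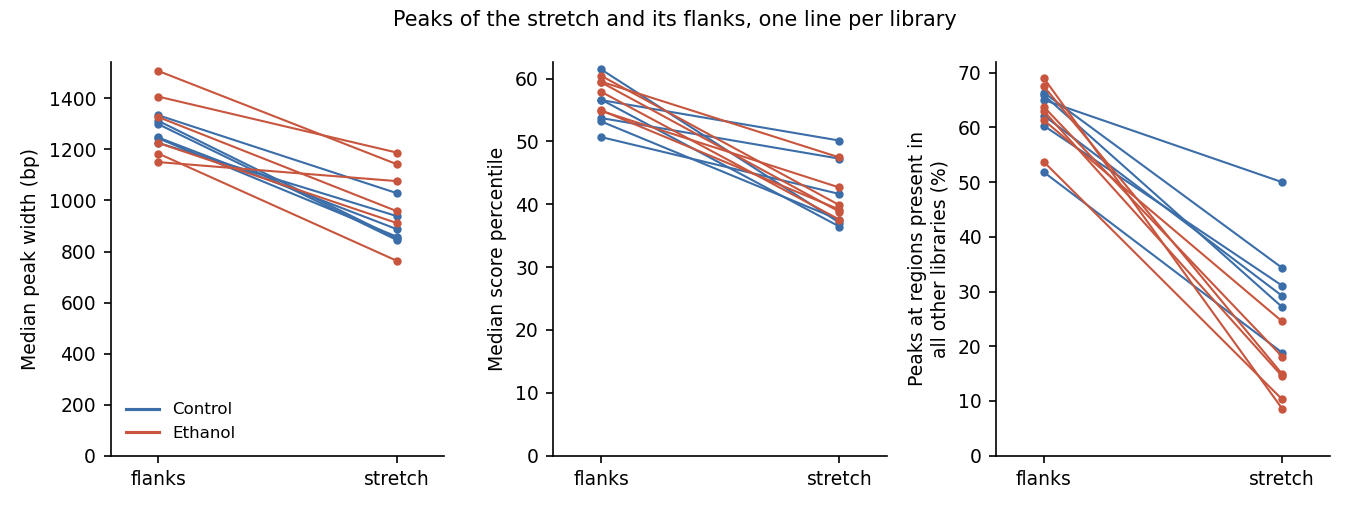
Median peak width (bp), median score percentile within the library and share of peaks in regions present in all other libraries (%), in the flanks and in the V segment stretch, with 1 line per library (Control blue, Ethanol red). All 12 lines fall from the flanks to the stretch in each panel, and the share falls from 51.8% to 69.0% in the flanks to 8.61% to 50% in the stretch.

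Number and spacing of peaks follow the choice of the stretch, which moved the groups apart, so the tests over all 12 libraries average unlike groups and nothing is read from them. Peaks per Mb ran from 11.5 to 75.5 in the stretch and from 25 to 35.4 in the flanks, higher in the stretch in 6 libraries and lower in the other 6, a mean log2 ratio of 0.00 ± 0.77 (SD, n = 12; exact p = 0.981). Of the 6 libraries with the higher number in the stretch 5 were Ethanol libraries and the other was Control 6, at 34.5 against 34.25 peaks per Mb. The mean log2 ratio was -0.57 ± 0.46 in Control and 0.58 ± 0.54 in Ethanol (SD, n = 6 each), with an adjusted p of 0.0625 for Control alone (exact permutation test). The median distance from a peak to the next ran from 3474 to 44596 bp in the stretch and from 5597 to 9887 bp in the flanks, and it was greater in the stretch in 9 of 12 libraries, by a mean log2 ratio of 0.90 ± 1.07 (SD, n = 12; exact p = 0.0171, adjusted p = 0.0214). It was 1.61 ± 0.66 in Control, greater in 6 of 6 libraries (adjusted p = 0.0391 for Control alone, exact permutation test), and 0.19 ± 0.92 in Ethanol, greater in 3 of 6 (SD, n = 6 each). Against the lower flank alone the ratio over all libraries was -0.09 and against the upper flank alone 1.47, and with mean in place of median distances it was -0.05, so its direction depended on the flank and the average used.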

How the data were processed

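The authors deposited 1 peak list per library (6 Control, 6 Ethanol, grouped by title and treatment label). The deposited score has no stated meaning, takes 150 to 186 distinct values per list, and was used only as a percentile within its library. The submitters' processing notes name BWA, MACS2 2.1.1, bedtools 2.27.1, featureCounts 1.5.0, edgeR and Rnor_6.0, without their roles. Any shift of reads and the treatment of duplicates are not given in the sources used here. A deeper library can list more and wider peaks, and precision is that of 6 samples a group. The labels name no batch or date.

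Peaks were merged at 1 bp overlap with Python 3.11.15, numpy 2.4.6 and pandas 2.3.3, and a region was detected where at least 1 bp lay in a peak. Sign-flip tests compared the stretch with its flanks within libraries, and the steps were tested on simulated data. Gene starts came from the study's annotation, to 100 bp. Regions named were the study's promoter loci, extremes of length, variability, score, detection difference and gaps, and the edges. The other 2 regions with a higher Ethanol length in every library, those lower in Ethanol, and the windows, gene starts, inner gap and tied regions singled out were chosen after their values were seen. Members and lists were chosen with earlier results of these data known. Alternatives were fewer peaks, other flanks or bounds, means, stricter detection, division by library length and each library left out.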

Additional observations from a re-analysis of the deposited data

Results flagged for a closer look

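In 70 groups of 6 libraries (the stretch's totals, windows and named regions), 9 values lay far from the rest of their group, with a gap to the next library, as a part of the group's range, above Dixon's critical value. Chance alone gives this in about 1 in 20 groups, and the measures share libraries and peaks. Regions of the stretch listed in 1 library alone numbered 73 in Ethanol 3, against 6 to 12 in the other Ethanol libraries. Control 6 held 11084 bp in peaks from 29 to 29.5 Mb, against 3136 to 5946 bp in the other Control libraries, and 12661 bp from 30 to 30.5 Mb, against 3404 to 6377 bp. In chr15:32870722-32873995 Control 6 held 1963 bp, against 530 to 972 bp in the other Control libraries, and Ethanol 6 held 3139 bp, against 824 to 1620 bp in the other Ethanol libraries.

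At the LOC102555014 start, chr15:31675908-31679085, Control 3 held 2328 bp, against 1267 to 1514 bp. In chr15:29469863-29473122 Ethanol 6 held 3202 bp, against 1691 to 2213 bp, and in chr15:29513228-29515654 Control 4 held 851 bp, against 1635 to 2072 bp. In the Dad1 region Ethanol 1 held 2161 bp, against 979 to 1312 bp in the other Ethanol libraries. The causes were not tested.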

How the results depend on the processing

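With all libraries kept, 36 of 48 values under other settings led to the same sign and the same call, or stayed within 1.5 times a count or 1 SD of a mean, among them every value for peak width, score rank and share of peaks in shared regions. The size of the width difference still depended on the flank, with a log2 ratio of -0.20 against the lower and -0.60 against the upper flank alone. The log2 ratio of peaks per Mb, 0.00 in the report, was -0.30 against the upper flank alone, -0.39 with the higher scoring 50% of peaks, -0.042 with the same number of peaks (50370) per library and -0.57 in the Control libraries alone. That of spacing was -0.089 against the lower flank alone and -0.049 with means, and 1.61 in the Control libraries alone. With the higher scoring 50% of peaks, the 83 regions with at least 3 more Ethanol libraries became 32, the 1 with more Control libraries 0, the 8 with a higher Ethanol length in every library 1, and the difference of 89 in regions per library 35.7. The 8 became 4 with the same number of peaks and 4 when divided by library length, and the 1 became 0 without the last 0.5 Mb.

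With each library left out in turn, the log2 ratio ran from -0.47 to -0.42 for width, from -0.12 to 0.12 for peaks per Mb and from 0.75 to 1.09 for spacing (adjusted p 0.00488 to 0.0427, exact permutation tests). The difference ran from -16.1 to -14.5 points for score and from -39.6 to -36.2 points for the share of peaks in shared regions. Each had an adjusted p of 0.00163 (exact permutation tests). With 1 library left out the exact p behind this value is the smallest the test can give, so it could not fall further. Leaving out a library does not free these differences of the choice of the stretch. The 83 ran from 44 without Ethanol 6 (47 without Ethanol 3) to 83, the 1 from 0 to 2, the 8 from 8 to 16 without Ethanol 1, the 0 with a higher Control length stayed at 0, and the difference in regions per library ran from 71.7 without Ethanol 3 to 103.3 without Ethanol 1. Counts by detection required the same difference in the share of libraries, which is not exactly 3 libraries once the groups are unequal. The causes were not tested, and the depth behind the lists is unknown. Each test paired the stretch with its flanks within the same library. What follows holds only for pairs of a Control with an Ethanol library. No paired analysis was possible because no test compared Ethanol with Control, and the labels name no pairs of animals across the groups.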
